A study of Mus musculus with 12 samples.

Results

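Lamellar bodies are the lysosome-related organelles in which alveolar epithelial type 2 cells (AEC2) store surfactant, and 8 genes of this organelle and of the route by which the precursor of surfactant protein C (proSP-C) reaches it were followed across 3 Sftpc genotypes. The genes were taken by name from the 16080 measured genes, and all 8 were found: Abca3, Lamp3 and Slc34a2 of the organelle and cell membrane, the proteases Napsa and Ctsh, the palmitoyltransferase gene Zdhhc2, and the ubiquitin ligase genes Nedd4 and Nedd4l. In background terms, proSP-C is made in the endoplasmic reticulum, receives palmitate on cysteines near its membrane anchor, and moves through the Golgi to multivesicular bodies. NEDD4 family ligases bind a proline and tyrosine motif of its cytosolic end and mark it for sorting into the inner vesicles. Proteases then trim both ends, and the mature peptide is stored with phospholipid in the lamellar body, which ABCA3 fills with lipid.

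RNA of AEC2 from female Bl6 mice at postnatal day 56 was sequenced in 12 libraries. The groups were SP-C C185G, the mutant, SP-C C185Gneo, which the series calls a hypomorphic control, and SP-C WT, with 4 libraries each. Mice of all 3 groups received tamoxifen by the intraperitoneal route at 200 mg per kg on 2 days, and their AEC2 were taken on day 7. The sources used here do not give the promoter that drives recombination or the rest of the Sftpc allele. The comparisons ask how expression of the mutant changes AEC2 transcripts, with C185Gneo and WT as controls.

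Groups follow the genotype field of the labels. Titles of the C185Gneo libraries carry "C185G" and those of the C185G libraries carry "C8C". Read by title, the C185Gneo libraries would be named C185G, while "C8C" matches no genotype name. Sftpc itself, which encodes proSP-C, averaged 2833 ± 256 normalized CPM in C185G, 895 ± 143 in C185Gneo and 7467 ± 194 in WT (SD, n = 4 each). The genotype named hypomorphic thus held the lowest Sftpc level, with no overlap between groups. Normalized CPM give a gene's counts on the authors' scaling between libraries, relative to the average scaled total over all libraries. Whether each library is its own animal is not stated in the labels. The p-values then reflect the variation among these libraries, part of which could be technical.

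Total counts ran from 15659512 to 23444287 per library. All 14 defining AEC2 markers were measured and none was at 0 counts, with a summed level of 16241 to 19205 normalized CPM in C185G libraries, 33260 to 37370 in C185Gneo and 36540.0 to 42662 in WT. C185Gneo replicate 1 stood apart from the other libraries on principal component 2 (8.33% of the variance) of genes with a mean of at least 5 normalized CPM. It had the lowest summed mesenchymal markers, 207 normalized CPM, against 466 to 571 in the other C185Gneo libraries. Abca3, Lamp3, Slc34a2 and Napsa are 4 of these 14 markers, so the sum partly restates their own levels. The 10 others summed to 13490.5 to 15005 normalized CPM in C185G, 22761 to 24820 in C185Gneo and 27748 to 31498 in WT, and without Sftpc the remaining 9 summed to 10431 to 12157, 21989 to 23740 and 20537 to 24044 in the same groups. In these bulk samples, fewer AEC2 and less RNA per AEC2 cannot be told apart. Epithelial Epcam and Cdh1, 2 of the 14 markers, were singled out after their values were seen. Epcam averaged 267 ± 5.21 normalized CPM in C185G, 247 ± 5.68 in C185Gneo and 243 ± 12.2 in WT. Cdh1 averaged 1229 ± 43.7, 1353 ± 35.6 and 1403 ± 33.7 in the same groups (SD, n = 4 each). Of the 14 markers, limma called 13 lower in C185G than in WT, Cdh1 included, and 1, Epcam, higher. Over all genes, 27.8% were called lower and 27.3% higher. The Epcam call ended without WT replicate 4 (limma adjusted p = 0.0713) or without C185G replicate 3 (0.0520).

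Transcripts of 7 of the 8 genes were lower in C185G than in WT and 1, Ctsh, was higher, by limma at a Benjamini-Hochberg adjusted p under 0.05. The membrane genes Slc34a2, Lamp3 and Abca3 and the protease gene Napsa fell most, to 0.299 to 0.419 times the WT level. Ctsh rose to 1.91 times that level, and Zdhhc2, Nedd4l and Nedd4 fell by less than 1 on the log2 scale. Of all 16080 genes, 55% passed the same test, 27.3% higher and 27.8% lower, so a call alone sets none of the 8 apart. Libraries of C185G and WT did not overlap for any of the 8, as for 48.7% of all genes. With library totals as the scaling, the calls over all genes split into 5357 higher and 3593 lower, against 4388 and 4464 here, and the 8 genes kept 1 higher and 7 lower. Against C185Gneo the outcome had the same 1 higher and 7 lower, where 57.8% of all genes passed (29.2% higher and 28.7% lower) and 49.9% of all genes did not overlap. Both comparisons use the same C185G libraries.

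No gene of the 8 passed the test in C185Gneo against WT, where 0.541% of all genes did (0.249% higher and 0.292% lower). Napsa and Nedd4 had an unadjusted p under 0.05 there (0.0159 and 0.0499). Libraries of C185Gneo and WT overlapped for all 8, while 6.87% of all genes did not overlap. The median log2 fold change of the 8 was -0.91 in C185G against WT, -0.996 in C185G against C185Gneo and -0.013 in C185Gneo against WT. Over all genes the largest of the 3 medians was 0.0038, and the median size of a change regardless of sign was 0.34, 0.36 and 0.09 in those comparisons.

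**Figure D1:**
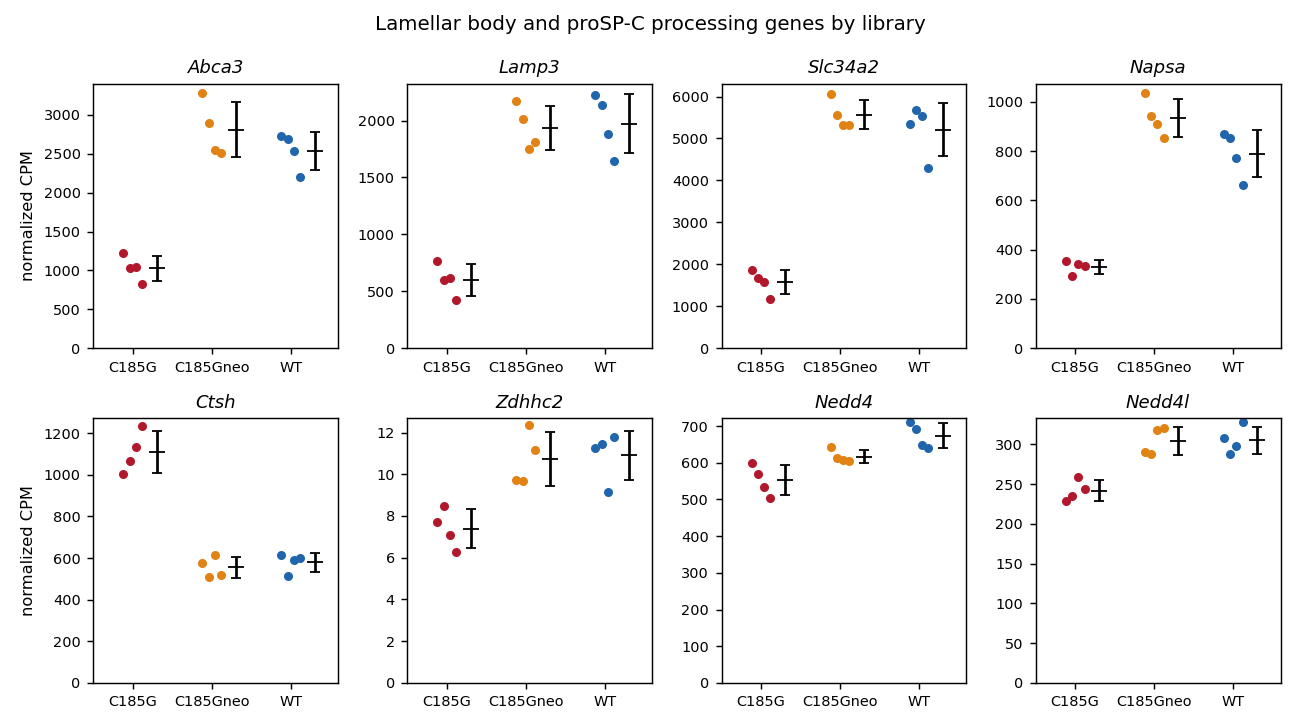
Levels of the 8 genes in each library (normalized CPM, vertical axes from 0), with C185G, C185Gneo and WT from left to right. Dots are libraries in replicate order and bars are the mean ± SD of 4; C185G dots lie below both controls for 7 genes and above them for Ctsh, and C185Gneo and WT dots overlap throughout.

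The membrane proteins come first. Abca3 encodes the ATP-binding cassette transporter that moves phospholipid into the lamellar body. Its C185G libraries had 1220.2, 1026, 1044 and 820.4 normalized CPM, the C185Gneo libraries 3279.6, 2894, 2553 and 2512, and the WT libraries 2731, 2696, 2535 and 2197. Every C185G library lay far below every control library, and the controls overlapped each other. Abca3 thus averaged 1028 ± 164 normalized CPM in C185G, 2809.5 ± 357 in C185Gneo and 2540.0 ± 244 in WT (SD, n = 4 each). It fell by 1.31 on the log2 scale against WT (SE 0.118, 95% interval -1.57 to -1.06, adjusted p = 9.31e-07) and by 1.46 against C185Gneo (adjusted p = 3.20e-07). The C185Gneo difference from WT was 0.14 (95% interval -0.11 to 0.40, adjusted p = 0.789). The gene (ENSMUSG00000024130) lies on the plus strand of chromosome 17 at 24351950 to 24410201 in GRCm38.

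Lamp3, the gene of a lysosome-associated membrane glycoprotein (DC-LAMP) that marks lamellar bodies and, in humans, mature dendritic cells, showed the widest spread among C185G libraries, with a coefficient of variation of 23.4%. Those libraries had 768, 594, 615 and 424 normalized CPM, against 2171, 2017, 1752 and 1811 in C185Gneo and 2223, 2139, 1879 and 1647 in WT. Replicate 1 was highest and replicate 4 lowest within C185G, and even the highest lay far under the lowest control library. On the log2 scale Lamp3 fell by 1.74 against WT (SE 0.155, 95% interval -2.07 to -1.40, adjusted p = 1.56e-06) and by 1.72 against C185Gneo (adjusted p = 1.53e-06). C185Gneo and WT libraries differed by -0.02 (95% interval -0.36 to 0.32). The gene (ENSMUSG00000041247) is on the minus strand of chromosome 16 at 19653378 to 19706375. Dendritic cell markers, of which 6 of 10 were measured, summed to 30.1 to 58.4 normalized CPM in C185G, 22.8 to 28.6 in C185Gneo and 30.1 to 34.9 in WT, with Xcr1, Cd209a, Clec9a and Clec10a not in the files used here. Their part in the Lamp3 level was not tested.

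Slc34a2 encodes the sodium-phosphate cotransporter NaPi-IIb of the AEC2 surface, which takes up phosphate released from surfactant lipid. Its C185G libraries held 1858, 1664, 1585 and 1173 normalized CPM, while C185Gneo libraries held 6063, 5558, 5319 and 5322 and WT libraries 5341, 5690.1, 5537 and 4285. The 2 controls overlapped and the C185G values lay well under them. Its log2 fold change was -1.74 against WT (SE 0.126, 95% interval -2.01 to -1.47, adjusted p = 1.34e-07), with -1.84 against C185Gneo (adjusted p = 6.78e-08). Against WT, Slc34a2 and Lamp3 (also -1.74) had the largest changes of the 8, and their order is not settled. Slc34a2 had -1.17 under quantile normalization, where Lamp3 had -1.81 to -1.53 over the alternatives of scaling and model. Between C185Gneo and WT the difference was 0.10 (95% interval -0.17 to 0.37). Slc34a2 (ENSMUSG00000029188) lies on the plus strand of chromosome 5 at 53038081 to 53071664.

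Deviations from the genotype means ran together for these 3 genes over the 12 libraries, although the order of libraries was not the same for each gene in every genotype. After each group's mean was taken out of the log2 values, Pearson's r over the 12 libraries was 0.96 for Abca3 with Lamp3, 0.91 for Abca3 with Slc34a2 and 0.93 for Lamp3 with Slc34a2. Nedd4 deviated with them, with r of 0.88, 0.92 and 0.84 to the 3 genes in that order. Napsa did so less closely (0.66, 0.58 and 0.47), and Zdhhc2 had r of 0.0036, 0.18 and 0.16. Ctsh ran the other way (-0.47, -0.57 and -0.58), as did Nedd4l (-0.66, -0.55 and -0.60). These are descriptions over libraries that share their scaling and depth, and they carry no test. Replicate 1 of each genotype was the highest of its group for 5 of the 8 genes, and replicate 4 of C185G and of WT was the lowest for 5.

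Because Slc34a2, Lamp3 and Abca3 moved together, their promoter windows are shown, each from 250 bases before to 50 bases after a RefSeq transcription start (GRCm38.p6), 5′ to 3′ on the gene's own strand. Capitals mark the matches to 6 short motifs searched on both strands. These were CAAGTG of NKX2-1, the E-box CACGTG, the forkhead core TGTTTAC, the C/EBP motif TTGCNNAA, the antioxidant element TGACNNNGC and the GC box GGGCGG. The windows are chr5:53049103-53049402 (plus strand) for Slc34a2, chr16:19706316-19706615 (minus strand) for Lamp3 and chr17:24351773-24352072 (plus strand) for Abca3.
Slc34a2: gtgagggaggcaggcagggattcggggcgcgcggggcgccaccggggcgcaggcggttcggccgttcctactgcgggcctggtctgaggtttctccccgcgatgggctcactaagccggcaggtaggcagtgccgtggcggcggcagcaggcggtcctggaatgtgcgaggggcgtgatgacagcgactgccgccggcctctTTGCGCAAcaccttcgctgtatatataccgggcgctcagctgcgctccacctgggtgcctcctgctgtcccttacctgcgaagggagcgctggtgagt
Lamp3: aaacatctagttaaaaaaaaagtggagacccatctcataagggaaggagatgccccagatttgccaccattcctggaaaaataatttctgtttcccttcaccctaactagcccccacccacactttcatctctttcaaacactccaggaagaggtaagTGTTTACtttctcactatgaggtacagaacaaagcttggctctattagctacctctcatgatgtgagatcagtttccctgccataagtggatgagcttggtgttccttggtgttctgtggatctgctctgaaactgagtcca
Abca3: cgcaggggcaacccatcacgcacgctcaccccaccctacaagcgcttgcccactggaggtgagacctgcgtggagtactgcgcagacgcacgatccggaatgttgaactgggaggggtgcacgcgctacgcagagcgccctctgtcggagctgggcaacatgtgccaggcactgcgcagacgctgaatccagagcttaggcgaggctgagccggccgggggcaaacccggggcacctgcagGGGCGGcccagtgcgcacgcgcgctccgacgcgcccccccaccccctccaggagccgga

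The Slc34a2 window holds 1 C/EBP match, which begins 48 bases before the start and reads on both strands. In Lamp3 the single match was the forkhead core, 92 bases before the start, and in Abca3 it was a GC box 9 bases before the start. Of 32851 RefSeq promoter windows of 300 bases, 10.8% hold the C/EBP motif, 3.65% the forkhead core and 35.7% the GC box. None of the 3 windows has CAAGTG (13.6% of all windows), CACGTG (7.15%) or the antioxidant element (12.4%). Their letters differ in composition too: G and C make up 68.7% of the Slc34a2 window, 43.7% of the Lamp3 window and 69.7% of the Abca3 window, beside a median of 52.7%. None of the 6 motifs searched was thus common to the 3 windows, and other motifs were not searched. The Slc34a2 window begins at 53049103, inside the annotated gene (53038081 to 53071664), so it surrounds an internal start. Nedd4 was matched through 2 starts, 1 with a C/EBP match and 2 GC boxes, and 1 with CAAGTG in 2 places and 1 overlapping antioxidant element. Promoters of Napsa, Ctsh, Zdhhc2 and Nedd4l were not used here.

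The proteases of proSP-C moved in opposite directions. Napsa encodes napsin A, an aspartic protease of AEC2 that takes part in the trimming of proSP-C and of the surfactant protein B precursor. Its level was 355, 291, 341 and 333 normalized CPM in the C185G libraries, 1036, 941, 909.8 and 854 in C185Gneo and 869, 854, 772 and 662 in WT. The C185G libraries were close together and below all controls, while C185Gneo and WT overlapped. Napsa fell by 1.25 on the log2 scale against WT (SE 0.0907, 95% interval -1.45 to -1.06, adjusted p = 9.39e-08) and by 1.50 against C185Gneo (adjusted p = 1.43e-08). With 0.25, it also had the largest difference of the 8 between C185Gneo and WT (95% interval 0.05 to 0.44, adjusted p = 0.373). This gene (ENSMUSG00000002204) is on the plus strand of chromosome 7 at 44572380 to 44586862.

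Ctsh encodes cathepsin H, a cysteine protease with aminopeptidase activity that acts on the same precursors. It was the 1 gene of the 8 that was higher, with 1004, 1065, 1136 and 1235 normalized CPM in C185G, 576, 511, 615 and 518 in C185Gneo and 614, 512, 593 and 600.3 in WT. The lowest C185G library was well above the highest control library. Ctsh rose by 0.94 against WT (SE 0.0816, 95% interval 0.76 to 1.11, adjusted p = 5.49e-07) and by a like amount against C185Gneo (95% interval 0.82 to 1.18, adjusted p = 2.49e-07). Its level in C185Gneo differed from WT by -0.06 (95% interval -0.24 to 0.11). Ctsh (ENSMUSG00000032359) lies on chromosome 9 at 90054152 to 90076089, plus strand.

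Within a library, the ratio of Ctsh to Napsa counts needs no scaling between libraries. On the log2 scale it was 1.50, 1.87, 1.74 and 1.89 in C185G, -0.85, -0.88, -0.56 and -0.72 in C185Gneo and -0.50, -0.74, -0.38 and -0.14 in WT. Ctsh outnumbered Napsa in every C185G library and was the less counted of both in every control library. The mean ratio was higher by 2.19 in C185G than in WT and by 2.50 than in C185Gneo. An exact two-sided permutation test over the 4 and 4 libraries gave p = 0.0286 for each, the smallest value that 70 splits allow, and 0.0857 after Benjamini-Hochberg adjustment over 6 ratio tests. Adjusted, neither difference passed 0.05. Given the Nedd4l to Nedd4 results among the 6 tests, no Ctsh to Napsa difference of any size could have passed. C185Gneo and WT differed by -0.31 (exact p = 0.0857, adjusted p = 0.171).

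**Figure D2:**
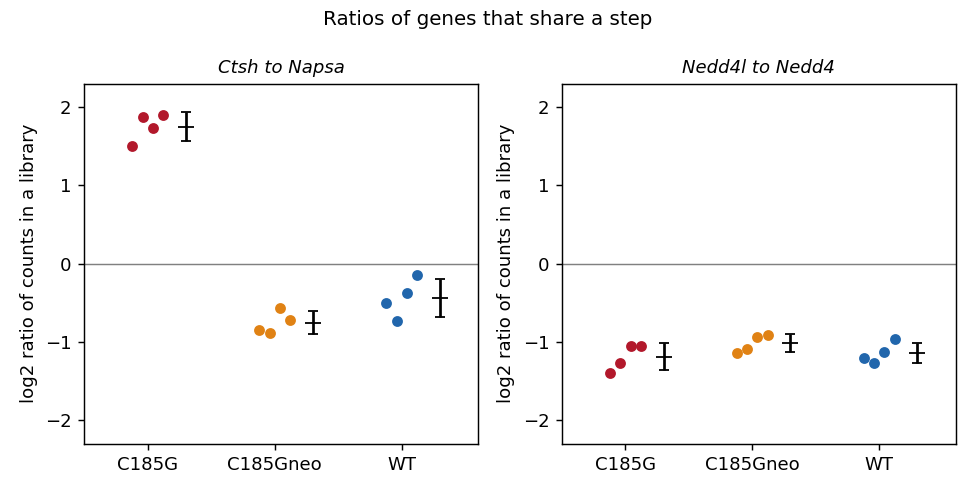
Log2 ratio of counts within each library for Ctsh to Napsa (left) and Nedd4l to Nedd4 (right), with C185G, C185Gneo and WT from left to right; dots are libraries and bars the mean ± SD of 4. The Ctsh to Napsa ratio is above 0 in all 4 C185G libraries and below 0 in all 8 control libraries, and the Nedd4l to Nedd4 ratio overlaps among groups.

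Among other proteases and cathepsins of the pathway, all 14 listed were measured, and 9 rose, none fell and 5 did not pass in C185G against WT, with a median of 0.29. Over all genes 27.3% were called higher and 27.8% lower in that comparison. Ctsd, the aspartic protease cathepsin D, averaged 817 ± 63.3 normalized CPM in C185G and 334 ± 4.38 in WT (log2 fold change 1.29, adjusted p = 1.27e-09). Ctsz, the carboxypeptidase cathepsin Z, rose by 0.99 and Lgmn, legumain, by 0.47. Napsa was therefore the 1 gene lower among 16 proteases, with Ctsh included. In C185G against C185Gneo, 8 of the 14 rose and 1 fell, beside 29.2% higher and 28.7% lower of all genes.

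Zdhhc2, an enzyme that attaches palmitate to cysteines of membrane proteins, was the lowest of the 8. Its C185G libraries had 7.73, 8.47, 7.09 and 6.28 normalized CPM, its C185Gneo libraries 9.71, 9.67, 12.4 and 11.1 and its WT libraries 11.3, 11.4, 9.14 and 11.8, from 102 to 227 counts per library. All C185G libraries lay under all control libraries, by a small margin. Zdhhc2 fell by 0.56 against WT (SE 0.124, 95% interval -0.83 to -0.29, adjusted p = 0.00163) and by 0.54 against C185Gneo (adjusted p = 0.00213). C185Gneo and WT differed by -0.02 (95% interval -0.29 to 0.24). Zdhhc2 (ENSMUSG00000039470) lies on chromosome 8 at 40423815 to 40510268, plus strand, and shares 247 exon bases with Cnot7 on the minus strand. Cnot7, a deadenylase subunit, averaged 52.0 normalized CPM in C185G, 57.6 in C185Gneo and 53.0 in WT (C185G against WT -0.03, adjusted p = 0.726). The strand setting of the counting is not given, so reads of the shared bases could have been assigned to either gene.

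Other palmitoyltransferase genes, listed with 2 partners, Golga7 and Selenok, did not move as a block. Of 21 measured of 25 listed, 10 rose, 6 fell and 5 did not pass against WT (median 0.18), beside 27.3% higher and 27.8% lower of all genes. Zdhhc3, a Golgi enzyme, averaged 253 ± 7.72 normalized CPM in C185G, 551 ± 76.3 in C185Gneo and 465 ± 48.5 in WT, a fall of 0.87 against WT (adjusted p = 2.73e-06). Zdhhc9, also of the Golgi, fell by 0.84 and Selenok, the partner of ZDHHC6, by 0.27, whereas Zdhhc6 itself rose by 0.54. Zdhhc18 rose by 0.76 and Zdhhc5, at the plasma membrane, by 0.47. Of 8 thioesterases that remove palmitate, 3 rose and 1 fell, with Abhd17c at 1.07, Abhd17a at 0.49, Lypla2 at 0.22 and the mitochondrial Abhd10 at -1.04.

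Nedd4 and Nedd4l, the HECT-type ubiquitin ligases of the sorting step, had the smallest changes of the 8. Nedd4 libraries held 599.6, 569, 535 and 505 normalized CPM in C185G, 642, 612, 607 and 604 in C185Gneo and 711, 693, 649.9 and 640.5 in WT. The highest C185G library nearly reached the lowest C185Gneo library, and 1 C185Gneo library exceeded the lowest WT library. Against WT, Nedd4 fell by 0.29 (SE 0.0594, 95% interval -0.42 to -0.16, adjusted p = 0.000974), and by 0.19 under quantile normalization (adjusted p = 0.0174). Against C185Gneo it fell by 0.16 (95% interval -0.29 to -0.03, adjusted p = 0.0318), a call that ended without C185Gneo replicate 1, 2 or 3 or without C185G replicate 3 or 4 (adjusted p = 0.0506 to 0.105). C185Gneo against WT gave -0.13 (adjusted p = 0.523). Nedd4 (ENSMUSG00000032216) lies on chromosome 9 at 72662346 to 72749852, plus strand.

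Nedd4l (NEDD4-2), which also controls the epithelial sodium channel, had 228, 236, 259 and 244 normalized CPM in C185G, 291, 288, 318 and 321 in C185Gneo and 308, 288, 298 and 328 in WT. All 4 C185G libraries were under all control libraries, whose 2 groups covered the same range. It fell by 0.34 against WT (SE 0.0592, 95% interval -0.46 to -0.21, adjusted p = 0.00028) and by 0.33 against C185Gneo (adjusted p = 0.000298). C185Gneo differed from WT by -0.0049 (95% interval -0.13 to 0.12). Nedd4l (ENSMUSG00000024589) is on chromosome 18 at 64887705 to 65217828, plus strand. The log2 ratio of Nedd4l to Nedd4 counts averaged -1.19 ± 0.17 in C185G, -1.02 ± 0.11 in C185Gneo and -1.14 ± 0.13 in WT (SD, n = 4 each). Its differences of -0.05, -0.17 and 0.12 did not pass the exact two-sided permutation test (adjusted p = 0.657 for the C185G to WT difference, 0.206 for C185G to C185Gneo and 0.206 for C185Gneo to WT).

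Of 12 measured of 13 other NEDD4 family ligases and adaptors, 3 rose, 4 fell and 5 did not pass against WT, with a median of 0.01. With library totals as the scaling 5 rose and 2 fell, and without C185G replicate 3 there were 2 that fell. Arrdc4, an arrestin-like adaptor, rose by 0.78 and Ndfip2, an activator of NEDD4 ligases, by 0.27, while the adaptor Arrdc2 fell by 0.77 and the ligase Smurf2 by 0.26. The ESCRT complexes, which draw ubiquitinated cargo into multivesicular bodies, had 29 of 32 listed genes measured, of which 23 rose and 4 fell (median 0.31). Beside both lists, 27.3% of all genes were called higher and 27.8% lower. Hgs, the ESCRT-0 subunit that binds ubiquitin, averaged 181 ± 3.99 normalized CPM in C185G and 109.7 ± 4.40 in WT (0.72, adjusted p = 1.87e-08). Ist1 rose by 0.53 and Vps37a by 0.44. Mvb12b of ESCRT-I fell by 0.75, Usp8, a deubiquitinase of endosomal cargo, by 0.72 and Chmp5 by 0.22 (0.14 with library totals).

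**Figure D3:**
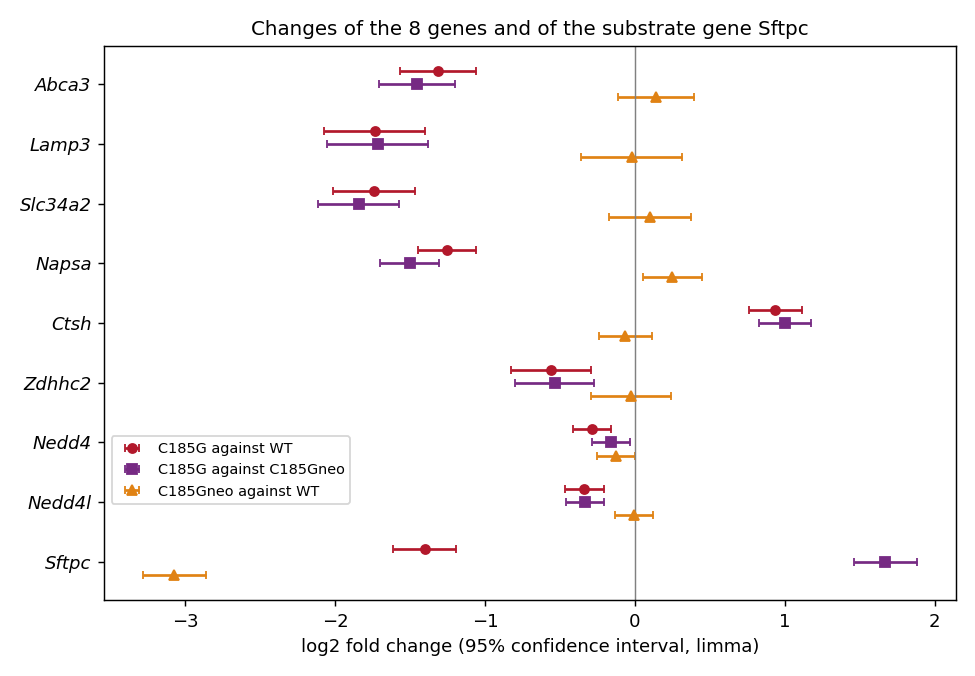
Log2 fold changes with 95% confidence intervals (limma, 12 libraries) of the 8 genes and of the substrate gene Sftpc, with C185G over WT, C185G over C185Gneo and C185Gneo over WT from top to bottom within a gene. The C185G intervals exclude 0 for every gene, with Ctsh alone of the 8 above it; C185Gneo against WT lies within 0.25 of 0 for the 8 genes and at -3.07 for Sftpc.

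Sftpc, the substrate, did not order the groups as the 8 genes did. Its log2 fold change was -1.40 for C185G over WT (SE 0.0978, limma adjusted p = 6.89e-08) and 1.67 for C185G over C185Gneo (limma adjusted p = 1.14e-08). In C185Gneo against WT it fell by 3.07 (adjusted p = 5.93e-10), the comparison in which none of the 8 genes passed.

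Per kilobase of exon, the 8 genes had the same order in C185Gneo and WT: Slc34a2, Lamp3, Napsa, Abca3, Ctsh, Nedd4, Nedd4l and Zdhhc2. Slc34a2 averaged 313 normalized CPM per kb in C185G, 1110.2 in C185Gneo and 1040.0 in WT, and Zdhhc2 averaged 1.34, 1.94 and 1.97 in those groups. In C185G, Ctsh came next after Slc34a2 at 247 normalized CPM per kb, against 123 in C185Gneo and 129 in WT. Lamp3 then had 179 per kb in C185G, 577 in C185Gneo and 588 in WT, Napsa 124, 352 and 297, and Abca3 109.6, 299.7 and 271. Napsa and Abca3 overlapped between libraries in all 3 groups, and in C185Gneo and WT no other neighbours did. In C185G the overlap also covered Slc34a2 with Ctsh, Ctsh with Lamp3, and Lamp3 with Napsa. Nedd4 (50.3, 56.2 and 61.4), Nedd4l (13.7, 17.2 and 17.3) and Zdhhc2 stood apart from each other in every group.

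**Figure D4:**
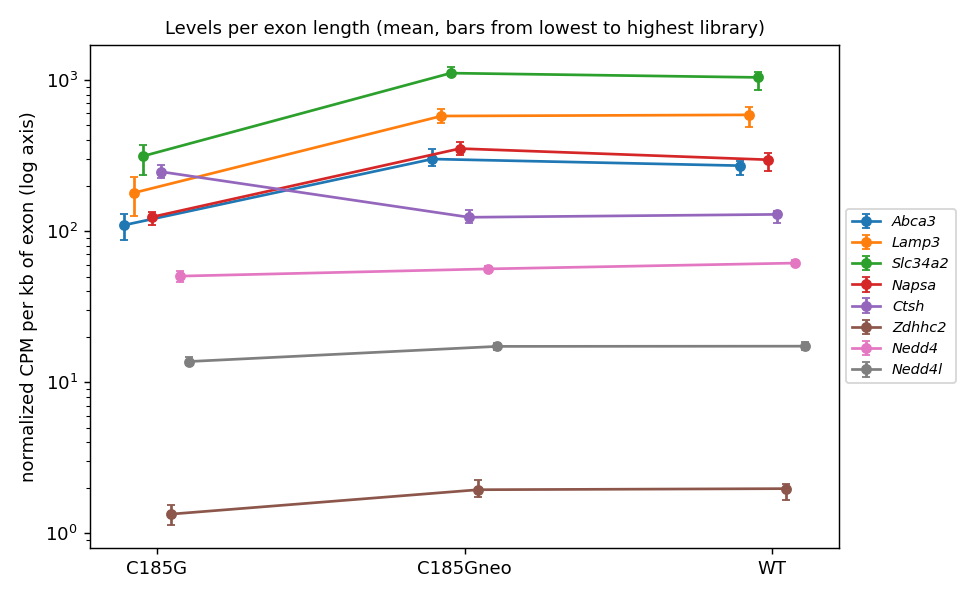
Mean level of each gene per kilobase of exon (normalized CPM per kb, log axis) in C185G, C185Gneo and WT, with bars from the lowest to the highest library and lines that join the groups of a gene. Ctsh lies below Abca3 in C185Gneo and WT and next after Slc34a2 in C185G, with Slc34a2 highest and Zdhhc2 lowest in all 3.

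Genes of the organelle's later steps were mixed. Of 26 genes of the Hermansky-Pudlak complexes and their partners, which build lysosome-related organelles, 9 rose and 5 fell in C185G against WT (median 0.09). Over all genes 27.3% were called higher and 27.8% lower, so these counts do not set the list apart. Rab27a, a small GTPase of granule docking, averaged 84.3 ± 17.8 normalized CPM in C185G and 209 ± 33.1 in WT (-1.32, adjusted p = 1.20e-05), Hps4 fell by 0.56 and the AP-3 subunit Ap3d1 by 0.34. Bloc1s2, a BLOC-1 subunit, rose by 0.73 and the AP-3 subunits Ap3s1 and Ap3s2 by 0.59 and 0.43. Exocytosis genes numbered 6 higher and 7 lower of 18 (median -0.10): the calcium sensor Syt7 fell by 0.91, Adgrf5, a receptor that restrains the surfactant pool, by 0.70 and the purinergic channel P2rx4 by 0.41, while the annexins Anxa7 and Anxa2 rose by 0.85 and 0.33 and Rab3d by 0.34.

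Lipid handling genes other than Abca3 had 6 higher and 8 lower of 19 measured (median 0.05), beside 27.3% higher and 27.8% lower of all genes. Lpcat1, the acyltransferase that remodels surfactant phosphatidylcholine, averaged 803 ± 97.4 normalized CPM in C185G and 1871 ± 238 in WT (-1.22, adjusted p = 6.59e-07). The flippase Atp8a1 fell by 1.16 and the sterol carrier Scp2 by 1.07. Other transporters of the ABCA family did not follow Abca3, with Abca7 at 0.46 and Abca2 at 0.49, both called higher. Among 10 measured lysosomal membrane glycoproteins other than Lamp3, 3 rose and 2 fell (median 0.01), or 1 rose and 3 fell without C185G replicate 3, with Cd68 at 0.94 and Laptm4b at -0.32. Of the 3 phosphate transporters measured beside Slc34a2, Slc20a2 rose by 0.49 and the other 2 did not pass.

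The surfactant protein genes fell in 4 of 4 cases, Sftpc included, with Sftpa1 at -1.40, Sftpb at -0.97 and Sftpd at -0.75. Under quantile normalization the Sftpb call ended (-0.15, limma adjusted p = 0.0604), Sftpc had -0.52 and Sftpa1 -0.78, and the median of the 4 was -0.48, against -1.19 on the authors' scaling. Of 13 transcription factors that regulate AEC2 or lysosomal genes, 10 fell and none passed as higher (median -0.29), beside 27.8% lower and 27.3% higher of all genes. With library totals 2 were called higher, and 1 was called higher with quality weights, as was 1 without C185G replicate 4. Cebpa, the C/EBP alpha gene, averaged 264 ± 22.5 normalized CPM in C185G and 564 ± 46.1 in WT (-1.10, adjusted p = 7.73e-07). The sterol regulators Srebf1 and Srebf2 fell by 0.69 and 0.68. In C185Gneo against WT, of all genes on these 12 lists, Sftpc and the protease gene Pgc were called.

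**Figure D5:**
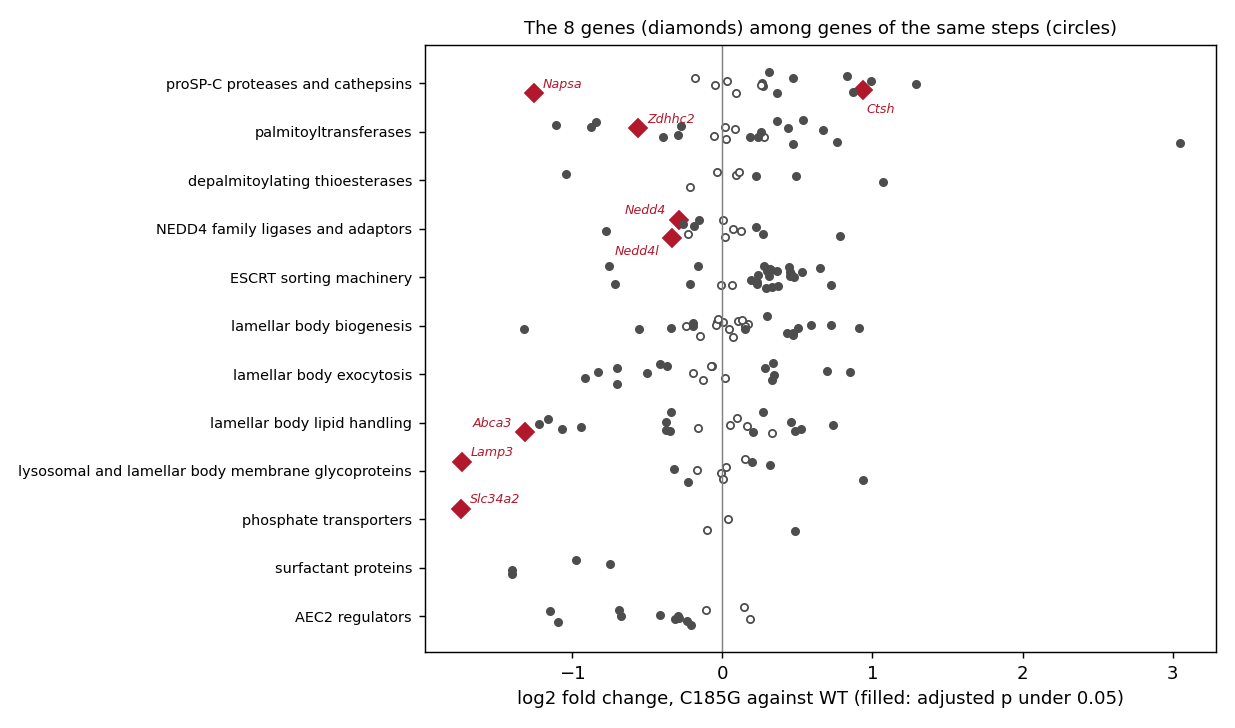
Log2 fold change of C185G against WT for the 8 genes (diamonds) and the other listed genes of each step (circles, filled where the adjusted p is under 0.05), by step from top to bottom. Ctsh lies among rising proteases, Napsa lies apart from them at -1.25, and Lamp3 and Slc34a2 are the lowest of their rows.

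Some markers of other cells also differed between C185G and the controls. Over all genes, 27.3% were called higher and 27.8% lower in C185G against WT, and 29.2% and 28.7% against C185Gneo. Of 11 measured endothelial markers 7 fell and none rose in C185G against WT, and 9 fell against C185Gneo, with sums of 127 to 149 normalized CPM in C185G, 157 to 245 in C185Gneo and 168 to 262 in WT. Club and ciliated markers had 4 of 10 lower against WT and 6 of 10 against C185Gneo, with sums of 5213 to 6226 in C185G, 6549 to 8164 in C185Gneo and 6267 to 8613 in WT. Alveolar type 1 markers, 3 higher and 2 lower of 11 against WT and also against C185Gneo, summed to 2473 to 3122 in C185G, 2419 to 3023 in C185Gneo and 2529.7 to 3275 in WT. Mesenchymal markers summed to 637 to 859 in C185G, 207 to 571 in C185Gneo and 508 to 780.5 in WT. Of these 12 markers 9 were higher in C185G than in C185Gneo (median 0.88), and 1 was higher than in WT, a count that ran from 0 to 4 over the alternatives. The measured dendritic cell markers had 5 higher and 1 lower against C185Gneo, and 2 higher and 1 lower against WT (1 to 4 higher over the alternatives). Macrophage markers, 11 of 20 measured, summed to 190.2 to 207 in C185G, 144 to 179.7 in C185Gneo and 178 to 225 in WT, with 2 higher and 1 lower against WT (0 to 3 higher over the alternatives) and 3 higher and 1 lower against C185Gneo, and Marco, Adgre1, Siglecf and C1qa among those not in the files used here. Lymphocyte markers, 3 of 11 measured and 2 of them lower against each control (1 or 2 against WT over the alternatives), summed to 16.1 to 20.3 in C185G, 20.4 to 26.0 in C185Gneo and 20.0 to 28.9 in WT. None of the measured markers was at 0 in all 4 libraries of a group, and their part in the changes of the 8 genes was not tested.

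The genes most like each of the 8 over the 12 libraries were sought among 11131 named genes with a mean of at least 5 normalized CPM, by Pearson's r of the log2 values. Cxcl15, a chemokine of lung epithelium, came first for both Abca3 (r = 0.997) and Slc34a2 (r = 0.998). The next were Lhpp for Abca3 and Ppp1r14c for Slc34a2 (both r = 0.997). Cxcl15 had 1228, 1028, 955 and 738 normalized CPM in C185G, 3638, 3425, 3079 and 2950.4 in C185Gneo and 3264, 3215, 3068 and 2610.4 in WT. As for Abca3, replicate 1 was the highest and replicate 4 the lowest of each group. Lamp3 was nearest to the kinase gene Taok3 and the chromatin remodeller gene Chd3 (both r = 0.997), and Napsa to Tmem159 (r = 0.995) and the Wnt coreceptor gene Lrp5 (r = 0.994).

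Ctsh was nearest to Plbd2, which encodes a lysosomal phospholipase B-like protein, and to Wdr83 (r = 0.991 and 0.990). Plbd2 averaged 76.5 ± 7.10 normalized CPM in C185G, 44.9 ± 1.98 in C185Gneo and 45.7 ± 0.991 in WT. The likest genes to the lower-level or less changed members had smaller r, 0.968 for Zdhhc2 with Dsel, 0.968 for Nedd4 with Zswim6 and 0.978 for Nedd4l with Laptm4b. These r describe 12 libraries in 3 groups, of which C185G differs from WT in 55% of all genes, and they carry no test.

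Abca3 shares 914 exon bases with the antisense transcript gene D330041H03Rik, named here for its overlap, which averaged 3.17 normalized CPM in C185G, 16.9 in C185Gneo and 12.7 in WT (C185G against WT -2.02, adjusted p = 1.98e-07). Without the strand setting, reads of both cannot be told apart, and the mean Abca3 level was 1028 normalized CPM in C185G, 2809.5 in C185Gneo and 2540.0 in WT.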

How the data were processed

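The authors deposited log2 values, 1 per gene and library, and from the values they took the log2 of each whole count plus 0.5, times 1 factor per library. Per the submitters' processing notes, STAR, limma and the mm10 build were used, without versions. The sources used here do not give the counting tool, annotation or strand setting. Per the labels' protocols, adherence to culture dishes depleted mesenchymal cells and magnetic beads depleted CD45+ cells.

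Counts were recovered from the deposited log2 values (100% whole within 1e-06). Recovered totals were 15659512 to 23444287 per library, which limits precision mainly for Zdhhc2. Normalized CPM are counts on the authors' scaling, relative to the average scaled total, since scaled totals differed by at most 1.08 times. A single limma model (limma 3.58.1, R 4.3.3) covered the 12 libraries, with a mean per genotype, robust eBayes with trend, no covariates and no filter. p-values were Benjamini-Hochberg adjusted over 16080 genes and called under 0.05. The planned branch for raw counts was not used, because the unit is log2. Ratios were tested by exact permutation (scipy 1.17.1). The fit was tested on simulated counts in which few genes changed, as many up as down. That setting does not cover a comparison such as C185G against WT, where 55% of all genes passed.

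Names, coordinates and exon lengths came from GENCODE release M21 (GRCm38), which named 16017 identifiers, and promoters from RefSeq (GRCm38.p6), which matched 4 of the 8 genes. The 8 genes, the lists and the rule for named genes were chosen with earlier results of these data known. Beside the 8 and Sftpc, the rule named up to 3 genes per list and direction with the smallest p in C185G against WT, an adjusted p under 0.05 and a mean of at least 5 normalized CPM, and the 2 likest genes of each of the 8. Sftpd, Pgc and Zdhhc15, and Epcam and Cdh1 as epithelial markers, were added after their values were seen.

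Replicate numbers were not used as pairs in the main fit. Correlations of same-numbered deviations in C185Gneo against WT were 0.25, 0.099, 0.035 and 0.24 for replicates 1 to 4. Replicates 1, 2 and 4 there correlated best with their own number. The correlations ran from -0.30 to -0.061 in C185G against WT and from -0.10 to 0.11 in C185G against C185Gneo. Whether replicate numbers mark a shared batch was not tested. Alternatives were limma without the trend, quantile, library-total and median-of-ratios scaling, a minimum of 5 normalized CPM, 2 added to the counts, only the 8 libraries compared, the replicate block, library quality weights, voom weights, and each library left out.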

Additional observations from a re-analysis of the deposited data

How the results depend on the processing

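Against WT, the 8 genes kept their direction and call under all 10 alternatives and in all 12 fits with 1 library left out. Slc34a2 had the widest span, -1.17 (quantile normalization) to -1.83. Against C185Gneo this held for 7 genes. Nedd4 missed the threshold without the trend (-0.16, adjusted p = 0.0526), under quantile normalization (-0.066, adjusted p = 0.370) and with library totals (-0.10, adjusted p = 0.172), and ran from -0.20 to -0.12 with 1 library left out. In C185Gneo against WT, where none of the 8 was called, differences near 0 changed sign. Lamp3 had 0.058 under quantile normalization and -0.10 to 0.040 with 1 library left out, and Zdhhc2 -0.11 to 0.022. Nedd4l had 0.011 with library totals, 0.019 with quality weights and -0.033 to 0.030 with 1 library left out. Genes called higher there, 40 in the main fit of limma, numbered 80 with quality weights and 21 to 54 with 1 library left out. Those called lower, 47, numbered 26 without the trend, 82 with quality weights and 18 to 58 with 1 library left out, the highest of both without C185G replicate 1. The Nedd4l to Nedd4 ratio of C185G against WT ran from -0.096 to 0.019 with 1 library left out. Cdh1 in C185G against WT had 0.020 under quantile normalization. The causes were not tested.

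With the replicate number as a block (replicate block), genes called lower in C185Gneo against WT numbered 27, and the Nedd4 change against C185Gneo was -0.16 (limma adjusted p = 0.0122). The Ctsh to Napsa difference stayed 2.19 against WT. An exact sign-flip permutation of 4 pairs, formed by replicate number, gave an adjusted p of 0.15. With 4 pairs, no difference of any size could pass the threshold in that permutation, so it cannot decide the question. The block changed no call of the 8 genes. Depth limited Zdhhc2 most, at 102 to 227 counts per library.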

Other observations

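Besides the 8 genes, 2 genes of the same steps were singled out after their values were seen. Pgc, the gene of the aspartic protease progastricsin, averaged 9.89 ± 1.23 normalized CPM in C185G, 14.6 ± 3.23 in C185Gneo and 5.53 ± 0.336 in WT (SD, n = 4 each), from 91 to 436 counts per library. It was the protease that differed between C185Gneo and WT, by 1.37 on the log2 scale (limma adjusted p = 0.00043), and it was 0.83 higher in C185G than in WT (adjusted p = 0.000278) and 0.54 lower than in C185Gneo (-0.54, adjusted p = 0.00556). Zdhhc15, a palmitoyltransferase gene, averaged 10.3 ± 4.32 normalized CPM in C185G, 1.23 ± 0.207 in C185Gneo and 1.17 ± 0.436 in WT. WT libraries held 14 to 28 counts of it and C185G libraries 82 to 230. Its log2 fold change against WT was 3.05 (limma adjusted p = 1.04e-05), the largest among the palmitoyltransferase genes measured. The level per kilobase of exon was 1.87 for Zdhhc15 and 1.34 for Zdhhc2 in C185G, and 0.213 for Zdhhc15 and 1.97 for Zdhhc2 in WT.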
